A study of Mus musculus with 18 samples.

Results

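This account follows 10 genes for secreted vascular factors, guidance receptors and matrix proteins in natural killer (NK) cells labelled as deleted for the transcription factor HIF-1 alpha, the aryl hydrocarbon receptor (AhR), or both. The genes are Vegfa, Pgf, Apln, Adm, Nrp1, Unc5b, Mmp9, Spp1, Adamtsl3 and Ccn5. They were chosen by their CPM differences between KO and flox cells in earlier results of these same data, and all 10 were matched by symbol among the 56953 gene identifiers of the count table. Because those differences chose them, they are described below with their errors and are given no p-value.

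NK cells are lymphocytes that kill infected or transformed cells. Here they came from mouse spleen and spent 7 days in culture under 1% oxygen, in medium that held human IL-2 at 1700 U/ml, a cytokine that keeps NK cells dividing. The 18 RNA-seq libraries form 6 groups of 3 libraries labelled as biological replicates. Cells of the genotype Hif1a fl/fl (Hif1a flox), Ahr fl/fl (Ahr flox) or Hif1a fl/fl with Ahr fl/fl (Hif1a Ahr flox) are set beside cells with the same floxed alleles plus Ncr1iCre (Hif1a KO, Ahr KO and Hif1a Ahr KO). In Ncr1iCre the recombinase is driven from Ncr1, the gene of the NK receptor NKp46. Every group was hypoxic, so the data hold no normoxic level, and no group has Cre without a floxed allele, so Cre and deletion cannot be told apart. The labels do not state whether the replicates of a group came from separate animals.

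HIF-1 is a heterodimer of an oxygen-regulated alpha subunit, encoded by Hif1a, and Arnt, and it switches on genes for glucose use and blood vessel growth when oxygen is scarce. AhR is a ligand-activated transcription factor that also pairs with Arnt. HIF-1 binds the DNA core ACGTG or GCGTG, and AhR with Arnt binds a core that contains GCGTG. Vascular endothelial growth factor A, encoded by Vegfa, is among the best known HIF-1 targets, and NK cells in oxygen-poor tissue can release it.

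For 8 of the 10 genes a RefSeq promoter sequence of build GRCm38.p6 was at hand, in 11 windows that run from 250 bases before to 50 bases after a transcription start. Mmp9 and Ccn5 had no entry. The 250 bases before the start are printed for 3 ligand genes and a receptor gene with wide differences between genotypes, so that the letters can be read beside the levels given later. All are 5′ to 3′ in the sense of the gene, and capitals mark ACGTG or GCGTG on either strand (CACGT or CACGC as read here). The stretches are chr17:46032378-46032627 (minus strand) for Vegfa, chrX:48034854-48035103 (minus strand) for Apln, chr7:110627407-110627656 (plus strand) for Adm and chr10:60831582-60831831 (minus strand) for Unc5b.
Vegfa: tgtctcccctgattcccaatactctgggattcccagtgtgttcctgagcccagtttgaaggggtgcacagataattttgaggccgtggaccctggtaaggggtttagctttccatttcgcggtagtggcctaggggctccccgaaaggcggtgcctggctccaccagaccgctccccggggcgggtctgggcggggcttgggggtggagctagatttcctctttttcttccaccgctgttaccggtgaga
Apln: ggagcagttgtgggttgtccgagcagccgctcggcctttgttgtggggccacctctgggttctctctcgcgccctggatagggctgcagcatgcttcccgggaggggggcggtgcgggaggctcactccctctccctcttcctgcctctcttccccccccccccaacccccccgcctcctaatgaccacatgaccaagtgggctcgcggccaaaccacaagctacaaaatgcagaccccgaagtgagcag
Adm: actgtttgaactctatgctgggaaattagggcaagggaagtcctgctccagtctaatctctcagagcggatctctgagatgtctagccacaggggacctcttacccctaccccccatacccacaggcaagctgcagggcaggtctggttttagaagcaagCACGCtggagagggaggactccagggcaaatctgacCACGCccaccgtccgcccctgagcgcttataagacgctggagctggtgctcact
Unc5b: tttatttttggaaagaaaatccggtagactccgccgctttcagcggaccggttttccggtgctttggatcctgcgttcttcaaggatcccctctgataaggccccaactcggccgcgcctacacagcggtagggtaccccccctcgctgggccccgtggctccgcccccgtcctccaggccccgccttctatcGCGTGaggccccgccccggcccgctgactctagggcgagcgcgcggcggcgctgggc
The Adm window held 2 GCGTG matches, 90 and 54 bases before the start. In the Unc5b window 1 GCGTG began 57 bases before the start, and it lay inside a match to TNGCGTG, a longer form of the core, that began 59 bases before it. The Vegfa and Apln windows shown held neither core, as did the windows of Adamtsl3 and Spp1 and 1 of the 2 Pgf windows. A second Vegfa window, at another annotated start, held 1 ACGTG and 1 GCGTG, and the Nrp1 window and the other Pgf window held 1 GCGTG each. Over all 32851 windows of this length, 43.8% held at least 1 of the cores, 32.4% held GCGTG, 19.6% held ACGTG and 5.07% held TNGCGTG. These are letter matches and not measured binding sites.

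Library totals ran from 54420649 to 55732940 estimated counts, and 16747 genes passed the filter on low counts and were tested. Whole-gene counts do not check the deletions, since they can include transcripts that lack the deleted exon. A KO group is therefore named by its label, and "without Hif1a" or "without Ahr" below means the libraries so labelled. In counts scaled to library size (CPM, also scaled between libraries by TMM), Hif1a stood at 60.3 CPM in Hif1a flox and 179.9 CPM in Hif1a KO cells, and at 59.8 and 192 CPM in the Hif1a Ahr line, so it was higher in the libraries labelled as deleted for it (adjusted p = 6.61e-09 and 3.07e-09). For Ahr the mean level was 76.5 CPM among Ahr flox libraries and 92.1 CPM among Ahr KO libraries, which was not called (adjusted p = 0.515). All 9 NK markers were detected in every group, with summed levels of 14087 to 30288 CPM per library. That sum was lower in Hif1a KO (14087 to 15942) than in Hif1a flox libraries (20452 to 24761), and 3 of 9 markers rose and 4 fell (beside 17.6% and 17.8% of all genes). It overlapped between KO and flox in the other lines. B cell markers summed to at most 0.111 CPM. Markers of T cells, neutrophils, monocytes and basophils differed with genotype and are given beside the genes they moved with. The sum of 6 endothelium markers, almost all of it Pecam1, was 298 to 326 CPM in Hif1a flox and 219.5 to 248 in Hif1a KO libraries, and 252 to 278 in Ahr flox and 286 to 341 in Ahr KO libraries. Cdh5, Tek and Emcn of this list had group means of at most 0.0309 CPM. Pecam1, Tie1 and Vwf passed the filter on low counts. Of these 3, edgeR called 1 lower in the Hif1a line (beside 17.8% of all genes), with a median log2 change of -0.37. In the Ahr and Hif1a Ahr lines 0 were called (beside 6.92% and 31.3%), with medians of 0.67 and 0.31. Without Hif1a KO replicate 2, Tie1 was called higher in the Hif1a line (log2 change 1.69, adjusted p = 0.021). The part of any endothelial cells was not tested. These are bulk libraries, so fewer cells of a type and less RNA per cell cannot be told apart.

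Vegfa, Pgf, Apln and Adm, the 4 ligand genes, were lower in both KO groups that lack Hif1a, and none was lower in Ahr KO than in Ahr flox cells on average. Vegfa (ENSMUSG00000023951) encodes the growth factor that drives endothelial cell division and vessel leakiness. In CPM it stood at 249, 221 and 318 in the Hif1a flox libraries and at 32.3, 25.5 and 32.8 in the Hif1a KO libraries. In the Hif1a Ahr line it stood at 218, 316 and 201 in flox and at 51.5, 46.6 and 38.5 in KO libraries. All 6 libraries without Hif1a therefore lay below all 12 others, and the Hif1a Ahr KO libraries lay above the Hif1a KO libraries with no overlap. The log2 change, KO minus flox, was -3.12 ± 0.18 (SE) in the Hif1a line, an 8.7-fold lower level, and -2.43 ± 0.18 in the Hif1a Ahr line, a 5.38-fold lower level. The difference between these changes was 0.69 ± 0.24 and was not tested. Ahr KO libraries held 311, 269 and 268 CPM beside 265, 247 and 237 in Ahr flox. Those groups did not overlap, but the change of 0.18 ± 0.17 was about the size of its error.

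Apln (ENSMUSG00000037010) encodes apelin, a peptide ligand of the endothelial receptor Aplnr that takes part in vessel sprouting. It showed the widest gap among the ligands. The Hif1a flox libraries held 17.5, 21 and 19.4 CPM and Hif1a KO libraries 1, 1.11 and 0.954 CPM, a change of -4.23 ± 0.14 (18.8-fold lower). The Hif1a Ahr flox libraries held 19.1, 16.4 and 18.1 CPM and Hif1a Ahr KO libraries 1.29, 1.05 and 1.31 CPM, a change of -3.88 ± 0.14 (14.7-fold lower). The KO groups of these lines overlapped with each other at about 1 CPM. Apln went the other way in the Ahr line. The Ahr flox libraries held 29.9, 25.5 and 31.6 CPM and Ahr KO libraries 47.2, 36.3 and 48.7 CPM, a change of 0.60 ± 0.11 (1.52-fold higher) with no overlap. The Ahr flox libraries themselves lay above the flox libraries of the other lines, with no overlap. Apln also had the tightest replicates of the 10 genes. Its SD within groups was 0.159 on the log2 scale, beside a median of 0.16 over all genes tested.

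Adm (ENSMUSG00000030790) encodes adrenomedullin, a peptide that widens vessels and keeps endothelium tight. Its levels were low. In the Hif1a line, flox libraries held 1.53, 0.83 and 1.49 CPM and Hif1a KO libraries 0.19, 0.0853 and 0.0707 CPM (log2 change -3.45 ± 0.46). In the Hif1a Ahr line, flox libraries held 0.772, 1.67 and 1.15 CPM and Hif1a Ahr KO libraries 0.43, 0.337 and 0.203 CPM (-1.88 ± 0.40). As for Vegfa, every Hif1a Ahr KO library lay above every Hif1a KO library, and the difference between the changes, 1.57 ± 0.63, was not tested. In the Ahr line, flox libraries held 2.24, 1.13 and 1.11 CPM and Ahr KO libraries 2.93, 2.19 and 1.88 CPM, which overlap (0.64 ± 0.34).

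Pgf (ENSMUSG00000004791) encodes placental growth factor, a Vegfa relative that binds the receptor Flt1. Its counts were few, 4 to 67 per library. Hif1a flox libraries held 0.436, 0.433 and 0.794 CPM and Hif1a KO libraries 0.242, 0.324 and 0.0707 CPM (-1.37 ± 0.49). Hif1a Ahr flox libraries held 0.413, 0.75 and 0.382 CPM and Hif1a Ahr KO libraries 0.143, 0.248 and 0.105 CPM (-1.62 ± 0.51). The groups did not overlap in either line, but the gaps were narrow beside the spread. Ahr flox libraries held 1.07, 1.06 and 0.564 CPM and Ahr KO libraries 1.23, 1.08 and 0.507 CPM, with a change of 0.06 ± 0.41 whose sign turns to -0.18 when Ahr KO replicate 1 is left out.

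**Figure D1:**
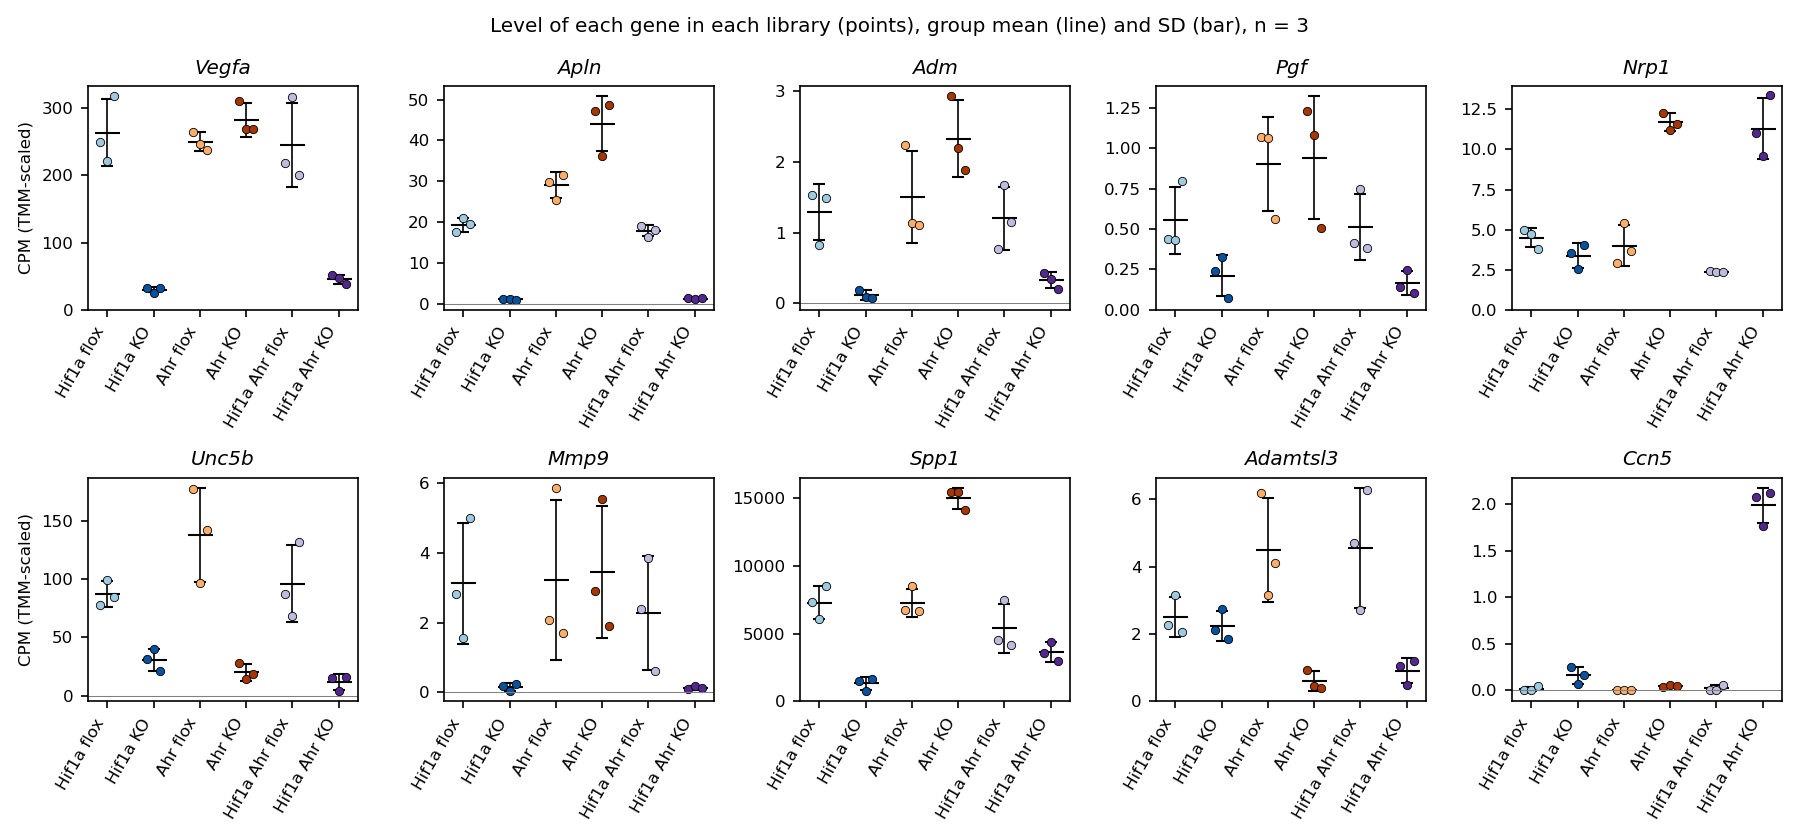
Level of each gene in CPM (vertical axes, TMM-scaled, each panel with its own scale) in the 18 libraries, by group on the horizontal axes. Points are libraries, horizontal lines group means and bars SD (n = 3). Vegfa, Apln, Adm and Mmp9 are low in both KO groups without Hif1a, Nrp1 is high and Adamtsl3 low in both KO groups without Ahr, and Ccn5 stands at 1.99 CPM in Hif1a Ahr KO cells and at 0.156 CPM or less elsewhere on average.

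Both receptor genes differed from flox by the most where Ahr was deleted. Nrp1 (ENSMUSG00000025810) encodes neuropilin-1, a coreceptor for Vegfa and for class 3 semaphorins. It was higher in both KO groups that lack Ahr. The Ahr flox libraries held 2.9, 5.43 and 3.69 CPM and Ahr KO libraries 12.3, 11.2 and 11.6 CPM (log2 change 1.55 ± 0.20, 2.93-fold). The Hif1a Ahr flox libraries held 2.41, 2.33 and 2.33 CPM and Hif1a Ahr KO libraries 11, 9.58 and 13.4 CPM (2.26 ± 0.20, 4.8-fold). Both KO groups reached about the same level, and the larger change in the Hif1a Ahr line goes with its lower flox level. In the Hif1a line flox libraries held 4.98, 4.71 and 3.82 CPM and KO libraries 3.55, 2.52 and 4.06 CPM, which overlap (-0.41 ± 0.20). The Hif1a Ahr change exceeded the sum of the Hif1a and Ahr changes by 1.13 ± 0.34, which was not tested.

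Unc5b (ENSMUSG00000020099) encodes a netrin receptor of endothelial cells and neurons that acts in repulsion of growing tips. Of the 10 genes it alone was lower in all 3 KO groups with no overlap. The Hif1a flox libraries held 78, 99.3 and 84.5 CPM and Hif1a KO libraries 31.3, 39.9 and 21.2 CPM (-1.50 ± 0.45). In the Ahr line, flox libraries held 177, 96.5 and 142 CPM and Ahr KO libraries 27.8, 14.1 and 18.4 CPM (-2.78 ± 0.47). In the Hif1a Ahr line, flox libraries held 87, 68.7 and 132 CPM and Hif1a Ahr KO libraries 15.6, 3.95 and 16.2 CPM (-3.01 ± 0.48). The 3 KO groups overlapped in part, and the mean was 30.8 CPM in Hif1a KO, 20.1 in Ahr KO and 11.9 in Hif1a Ahr KO cells. The change in the Hif1a Ahr line was smaller than the sum of the other changes (-4.28) by 1.27 ± 0.77, which was not tested. Replicates varied widely, with an SD within groups of 0.611 (log2) that exceeds that of 94.1% of genes tested.

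The summed level of T cell markers moved the same way as Unc5b. All 7 were detected in each group, and their sum was 64.2 to 131 CPM in the flox libraries of the 3 lines. It was 11.7 to 24.7 CPM in Hif1a KO, 40.4 to 44.5 in Ahr KO and 11.1 to 41.6 in Hif1a Ahr KO libraries. Most of the sum came from Cd3g and Cd3d, which encode CD3 chains and were the only 2 of 6 tested markers to fall in each line. By contrast, Cd3e, Cd4 and Cd8a had group means of 0.207 to 4.14 CPM and were not called in any line. The median log2 change of the 6 tested markers was 0.79 in the Ahr line, opposite in sign to Unc5b and to the sum. This median was -0.62 for Hif1a alone and -0.39 for the double deletion. The sum thus follows Cd3g and Cd3d and is not read as an amount of T cells. The part of any T cells in the Unc5b result was not tested.

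The matrix genes fell into different patterns. Mmp9 (ENSMUSG00000017737) encodes gelatinase B, a secreted protease that cuts basement membrane collagen. In the Hif1a line, flox libraries held 2.82, 1.57 and 4.99 CPM and Hif1a KO libraries 0.173, 0.0341 and 0.247 CPM (-4.35 ± 0.87). Hif1a Ahr flox libraries held 2.39, 3.86 and 0.601 CPM and Hif1a Ahr KO libraries 0.0897, 0.195 and 0.122 CPM (-4.05 ± 0.90). Every library without Hif1a lay below the lowest of the others, which was Hif1a Ahr flox replicate 3. Ahr flox libraries held 2.07, 5.87 and 1.71 CPM and Ahr KO libraries 2.92, 5.55 and 1.9 CPM (0.11 ± 0.64), so these groups overlapped throughout. Mmp9 was the noisiest of the 10 genes, with an SD within groups of 0.941 (log2), above that of 98.8% of genes tested.

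Neutrophils are a known rich source of Mmp9, and the neutrophil markers moved with it. Their summed level (8 genes) was 1.63, 1.41 and 5.82 CPM in Hif1a flox and 0.138, 0.0853 and 0.0884 CPM in Hif1a KO libraries. It was 3.92, 5.89 and 0.983 CPM in Hif1a Ahr flox and 0.359, 0.266 and 0.157 CPM in Hif1a Ahr KO libraries. The Ahr line stayed between 0.467 and 1.73 CPM in all 6 libraries. Elane, Ltf, Retnlg and Camp were at 0 in both KO groups without Hif1a. Of 5 tested markers 4 fell in the Hif1a line and 5 in the Hif1a Ahr line by edgeR (beside 17.8% and 16.5% of all genes). In the Ahr line 0 were called (beside 6.92% of all genes), with 0 at an unadjusted p under 0.05. No other tool was run on this list. The part of neutrophils in the Mmp9 result was not tested.

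Spp1 (ENSMUSG00000029304) encodes osteopontin, a secreted phosphoprotein that binds integrins and Cd44, and it was by far the most counted of the 10 genes. Hif1a flox libraries held 7325, 6058 and 8497 CPM and Hif1a KO libraries 1502, 790.4 and 1687 CPM (-2.46 ± 0.28, 5.5-fold lower). The Ahr flox libraries held 6720.2, 8498 and 6663 CPM and Ahr KO libraries 15444, 15483 and 14112 CPM (1.04 ± 0.27, 2.06-fold higher). The 2 deletions thus went with opposite differences, neither with overlap. The Hif1a Ahr flox libraries held 4516, 7506 and 4191 CPM and Hif1a Ahr KO libraries 3609.7, 4398 and 2956 CPM, which overlap (-0.56 ± 0.26). The mean of Hif1a Ahr KO cells, 3654 CPM, lay between those of Hif1a KO cells (1326) and Ahr KO cells (15013), and the change lay 0.85 ± 0.46 above the sum of the other changes.

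In the Hif1a and Ahr lines, summed markers of myeloid cells moved in the same direction as Spp1. The 7 macrophage and monocyte markers summed to 4.19 to 9.9 CPM in Hif1a flox and 0.853 to 1.83 in Hif1a KO libraries. They summed to 4.36 to 5.98 CPM in Ahr flox and 6.8 to 10.4 in Ahr KO libraries, and to 2.79 to 9.25 and 2.31 to 4.57 CPM in the Hif1a Ahr line. Of 3 tested markers, edgeR called 3 lower in the Hif1a line (beside 17.8% of all genes), with a median log2 change of -3.24. In the Ahr line 0 were called (beside 6.92%), with a median of 0.77. In the Hif1a Ahr line, where Spp1 was not called, 2 were lower (beside 16.5%), with a median of -2.40. C1qa and C1qb were at 0 in all 3 KO groups, and C1qa was at 0 in Ahr flox libraries too. The mast cell and basophil list of 3 genes summed to 126 to 173 CPM in Hif1a flox, 9.28 to 34.6 in Hif1a KO, 96.9 to 121 in Ahr flox, 169.9 to 214 in Ahr KO, 95.5 to 165 in Hif1a Ahr flox and 37.2 to 69.9 in Hif1a Ahr KO libraries. Nearly all of that came from Mcpt8, a basophil protease, while Cpa3 had means of 0.972 to 3.32 CPM and Ms4a2 of at most 0.0177 CPM. Both tested genes of that list were called lower in the Hif1a line (beside 17.8% of all genes), with a median log2 change of -1.83. In the Hif1a Ahr line 1 of 2 was (beside 16.5%), with a median of -0.33. In the Ahr line 0 of 2 were called (beside 6.92%), with 2 at an unadjusted p under 0.05 and a median of 0.96. No other tool was run on these lists. The sum thus follows Mcpt8 and is not read as an amount of basophils. The part of any myeloid cells in the Spp1 result was not tested.

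**Figure D2:**
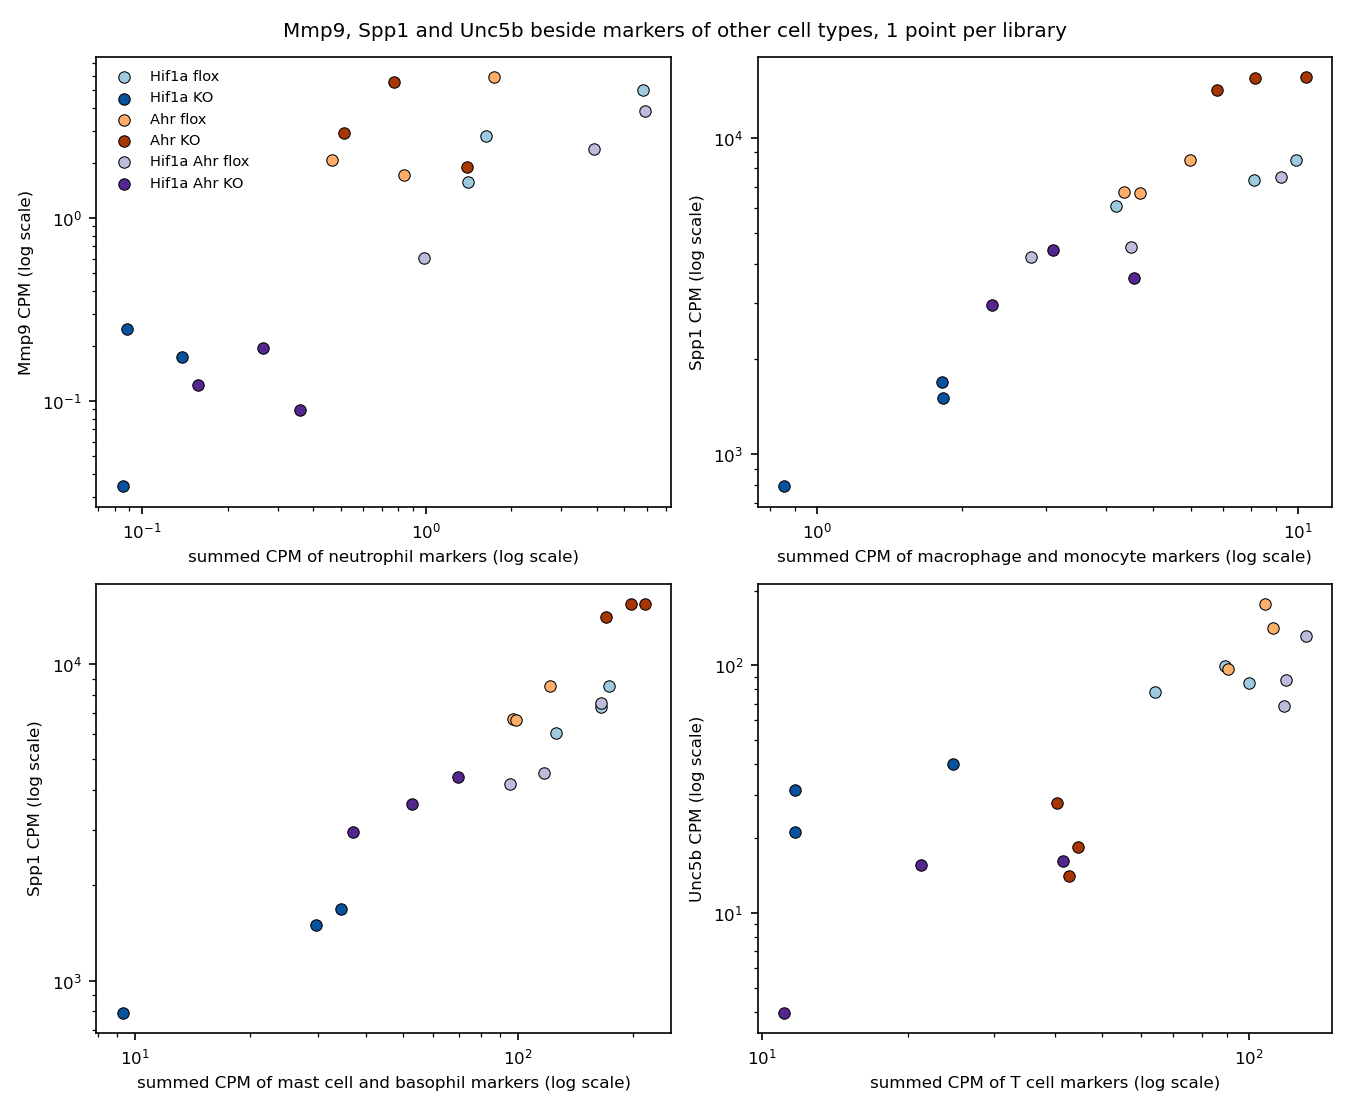
Levels of Mmp9, Spp1 and Unc5b (vertical axes, CPM, log scale) against the summed CPM of marker genes of other cell types (horizontal axes, log scale), 1 point per library, coloured by group. By group mean, Spp1, the monocyte sum and the mast cell and basophil sum (nearly all Mcpt8) are highest in Ahr KO and lowest in Hif1a KO libraries. Mmp9 and the neutrophil sum are both low in the 6 KO libraries without Hif1a. Unc5b and the T cell sum (mostly Cd3g and Cd3d) are both lower in the 9 KO libraries than in the 9 flox libraries.

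Adamtsl3 (ENSMUSG00000070469) encodes an ADAMTS-like glycoprotein of the matrix that lacks protease activity. It was lower in the KO groups without Ahr only, as far as these 3 lines go. In the Ahr line, flox libraries held 6.17, 3.15 and 4.11 CPM and Ahr KO libraries 0.935, 0.464 and 0.395 CPM (-2.90 ± 0.40, 7.45-fold lower). In the Hif1a Ahr line, flox libraries held 4.69, 2.72 and 6.26 CPM and Hif1a Ahr KO libraries 1.04, 0.497 and 1.21 CPM (-2.31 ± 0.38, 4.97-fold lower). The Hif1a flox libraries held 2.27, 3.16 and 2.06 CPM and Hif1a KO libraries 2.13, 2.73 and 1.84 CPM, which overlap (-0.16 ± 0.36). The difference between the Ahr and the Hif1a change was -2.73 ± 0.54 and was not tested. Over the 18 libraries Adamtsl3 ran opposite to Nrp1 (Pearson's r of -0.85 on log2 CPM) and with Unc5b (0.88), a description of libraries that fall into 6 groups.

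Ccn5 (ENSMUSG00000027656) encodes a matricellular protein of the CCN family, known from smooth muscle and fibroblasts. It was close to absent except where both genes were deleted. Hif1a Ahr KO libraries held 2.08, 1.77 and 2.12 CPM and Hif1a Ahr flox libraries 0, 0 and 0.0546 CPM. Summed over libraries this was 337 counts beside 3, a ratio of 109 with a 95% interval of 36.9 to 529.9 (exact conditional interval, counting error only). Hif1a KO libraries held 0.242, 0.0682 and 0.159 CPM and Hif1a flox libraries 0, 0 and 0.0378 CPM, or 27 counts beside 2 (ratio 12.6, interval 3.16 to 109). Ahr KO libraries held 0.0367, 0.058 and 0.0376 CPM, 7 counts in all, and Ahr flox libraries held 0 counts, which allows up to 0.0181 CPM over the group (a floor of 3 counts), so the Ahr KO level was at least 2.42-fold higher by that floor. The exact interval for this ratio, which also counts the error of the KO counts, has a lower limit of 1.5. Ccn5 passed the filter on low counts through the Hif1a Ahr KO group alone, so a difference was built into its entry. The intervals pool libraries and leave out the spread between them, which was 17.2 to 72.2 times counting error over all genes. For a gene chosen by these differences they describe the counts and are no test. Fibroblast and stroma markers (6 genes) summed to 0.753 to 1.77 CPM in the Hif1a Ahr KO libraries and 0.553 to 1.34 CPM in the other groups, with Hif1a KO libraries (0.553 to 0.884) below Hif1a flox libraries (1.08 to 1.34). Col3a1 was at 0 in all groups but Hif1a Ahr KO, and the part of such cells was not tested.

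**Figure D3:**
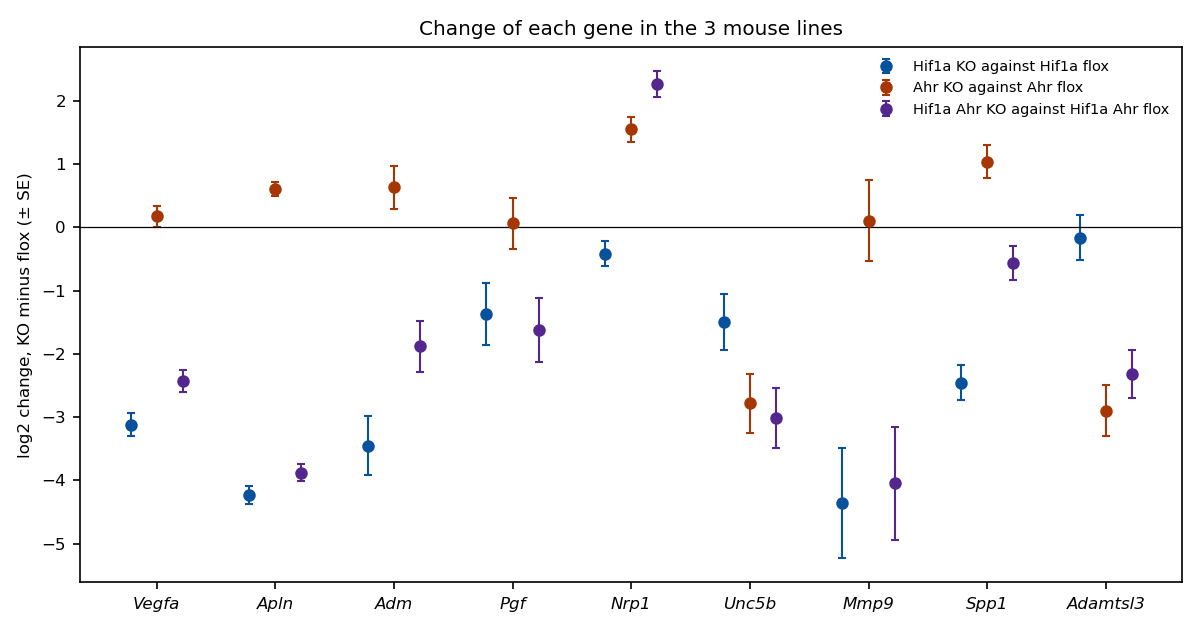
Log2 change, KO minus flox, of 9 of the genes (vertical axis, ± SE of the fit over 18 libraries), with 1 colour per line. Ccn5 is left out because its flox libraries hold 0 to 3 counts in all. Vegfa, Apln, Adm, Pgf and Mmp9 lie below 0 in the Hif1a and Hif1a Ahr lines and near or above 0 in the Ahr line, Nrp1 (up) and Adamtsl3 (down) differ where Ahr is deleted, and Unc5b lies below 0 in all 3.

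Counted at an adjusted p under 0.05 (edgeR's quasi-likelihood test over all genes), 8 of the 10 genes were called in the Hif1a line, where 35.4% of all genes tested were called. Of these 1 was higher and 7 lower in KO cells, beside 17.6% and 17.8% of all genes. In the Ahr line 5 were called beside 6.92% of all genes, 3 of them higher (2.14% of all genes) and 2 lower (4.78%). In the Hif1a Ahr line 9 were called beside 31.3% of all genes, 2 of them higher (14.8% of all genes) and 7 lower (16.5%). The median log2 changes of the 10 genes were -1.98, 0.39 and -2.10, and those of all genes tested were -0.00935, 0.00126 and -0.0171. Since these contrasts chose the genes, nothing is read from the counts. The Spp1 call in the Ahr line was lost when any of 5 of its 6 libraries was left out (all but Ahr flox replicate 2), and also without the filter on low counts. Unc5b in the Hif1a line lost its call without Hif1a KO replicate 1, Hif1a KO replicate 3 or Hif1a flox replicate 2. Pgf lost its call in the Hif1a line without Hif1a KO replicate 1, Hif1a KO replicate 3 or Hif1a flox replicate 3, and in the Hif1a Ahr line without Hif1a Ahr KO replicate 1, Hif1a Ahr KO replicate 3 or Hif1a Ahr flox replicate 2.

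Put in order of group means, the same CPM values restate these patterns and add no separate result. For Vegfa, Apln, Adm, Pgf and Mmp9 the 4 groups with intact Hif1a came first and the 2 without it last, with a gap between the fourth and the fifth group that no library crossed. Neighbours above that gap overlapped for Vegfa, Adm, Pgf and Mmp9, so their order is not distinct, whereas for Apln both Ahr groups stood apart. For Nrp1 the Ahr KO and Hif1a Ahr KO groups came first, overlapped with each other, and stood clear of the rest. For Adamtsl3 these same groups came last, clear of the rest. For Unc5b the 3 flox groups came first and no KO library reached them. Spp1 had the Ahr KO group first and the Hif1a KO group last, each clear of its neighbour. The Spp1 groups between these overlapped from neighbour to neighbour, the Hif1a Ahr KO group among them.

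By likeness of pattern, measured as Pearson's r of log2 CPM over the 18 libraries, the closest genes to Vegfa were the glucose transporter gene Slc2a1 (0.995) and Cdc42bpa (0.994). The closest to Apln were Zfp607b (0.989) and Pfkfb3 (0.988), a regulator of glycolysis. Adm ran most closely with Sbf2 (0.972) and Slc39a14 (0.970), and Pgf with Fcho1 (0.922) and Ube4a (0.921). Nrp1 ran with the laminin chain gene Lamb3 (0.923) and Zfp609 (0.922), and Unc5b with the actin-severing protein gene Scin (0.968) and Errfi1 (0.966). Mmp9 ran with Pik3r1 (0.980) and the laminin chain gene Lamc1 (0.974), and Spp1 with Adamts14, a procollagen-trimming protease gene, and F2rl2 (0.983 each). Adamtsl3 ran with Zmat4 (0.970) and Rasgrp4 (0.968), and Ccn5 with AB124611 (0.967) and Gpr132 (0.956). These are descriptions over libraries that share 6 groups, and 2 genes were taken for each.

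The relatives and partners of the 10 genes were followed in 10 lists of families and receptors, 225 genes of which 110 passed the filter. In the Hif1a line 18 rose and 40 fell (52.7% called, beside 35.4% of all genes). In the Ahr line 10 rose and 5 fell (13.6%, beside 6.92%), and in the Hif1a Ahr line 17 rose and 21 fell (34.5%, beside 31.3%). Their median changes were -0.34, 0.17 and -0.10. The Ahr count was the least settled, with 28 called when same-numbered libraries were taken as pairs. It came to 6, 7, 8 and 8 without Ahr flox replicate 1, Ahr flox replicate 3, Ahr KO replicate 2 and Ahr KO replicate 3. The lists were drawn up by family, with earlier results of these data known.

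**Figure D4:**
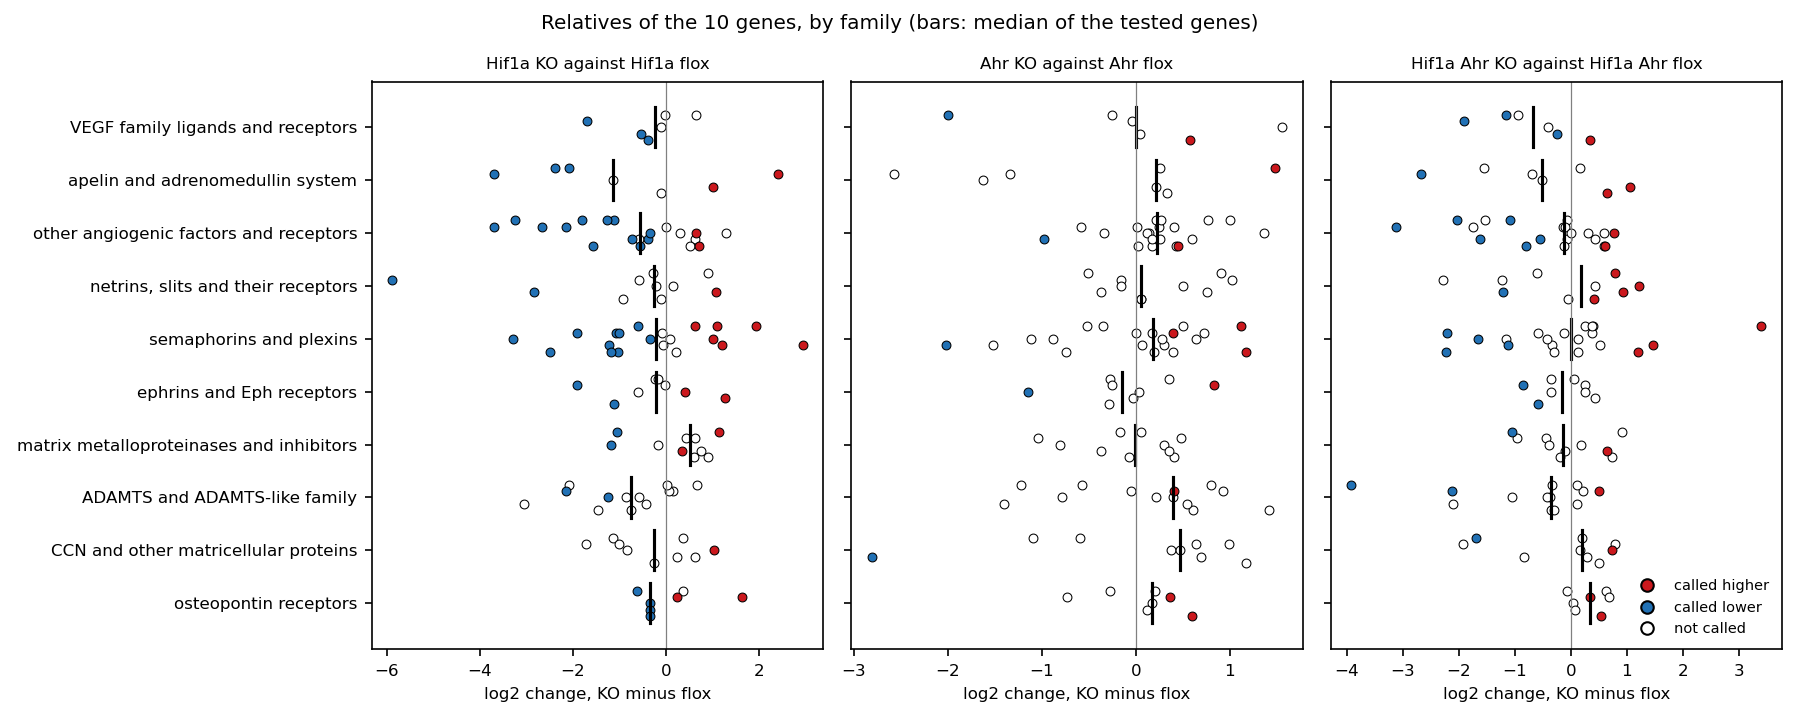
Log2 change, KO minus flox (horizontal axes), of the 110 tested relatives of the 10 genes, 1 panel per line and 1 row per list. Filled points are genes called at an adjusted p under 0.05 (red higher, blue lower), open points were not called, and bars are list medians. Most called genes of the angiogenic list lie below 0 in the Hif1a line, where 12 of 20 fell and 2 rose, beside 17.8% and 17.6% of all genes.

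The partners through which the ligands act were mostly scarce in these cells. Of the VEGF receptors, Flt1 stood at 0.169 to 0.377 CPM over the group means, and it fell in the Hif1a Ahr line (adjusted p = 0.0369), a call lost under DESeq2 (adjusted p = 0.063) and without any of 5 single libraries, all but Hif1a Ahr flox replicate 2 (adjusted p = 0.0503 to 0.119). Flt4, the receptor gene for Vegfc, fell in the Hif1a line from 0.744 to 0.226 CPM (adjusted p = 0.0248) and in the Hif1a Ahr line from 0.856 to 0.225 CPM (adjusted p = 0.0146). Leaving out Hif1a flox replicate 3, Hif1a KO replicate 1 or Hif1a KO replicate 2 ended the former call, and leaving out Hif1a Ahr flox replicate 2 or Hif1a Ahr KO replicate 3 the latter (adjusted p = 0.0673 to 0.132). The former call was also lost under limma voom (adjusted p = 0.0549) and by edgeR without the filter on low counts (adjusted p = 0.075). Kdr, at 0.0378 to 0.0836 CPM, did not pass the filter. The apelin receptor gene Aplnr had group means of at most 0.0123 CPM. For adrenomedullin the receptor gene Calcrl rose in the Hif1a line from 3.1 to 6.21 CPM (log2 change 1.00 ± 0.18, adjusted p = 3e-04) and in the Hif1a Ahr line from 3.15 to 6.58 CPM (1.06 ± 0.18, adjusted p = 2.12e-04). This was opposite in direction to Adm itself. Ramp1, whose product joins Calcrl to form a receptor for calcitonin gene-related peptide, fell in the Hif1a line (-2.10 ± 0.29, adjusted p = 2.49e-05) and rose in the Ahr line (1.48 ± 0.26, adjusted p = 0.00181). Ramp2, whose product makes Calcrl an adrenomedullin receptor, had group means of 0.0462 to 0.105 CPM. Ramp3, whose product does so too, rose in the Hif1a line from 0.45 to 2.38 CPM (adjusted p = 0.0266), though not if any of 4 single libraries is left out, Hif1a flox replicates 1 and 3 and Hif1a KO replicates 1 and 2 (adjusted p = 0.0546 to 0.101). In the Ahr line Ramp3 stood at 0.825 CPM in flox and 0.137 CPM in KO cells, called with a replicate block (adjusted p = 6.27e-04) but not without it (adjusted p = 0.137). Pam, the enzyme gene for the amidation that adrenomedullin needs, rose in the Hif1a Ahr line from 11.8 to 18.4 CPM (adjusted p = 1.65e-04). Calca, the gene of calcitonin gene-related peptide, fell in the Hif1a line from 2.82 to 0.215 CPM (adjusted p = 2.17e-05). Of the VEGF ligands beside Vegfa and Pgf, Vegfb fell in the Hif1a line (-0.54 ± 0.08, adjusted p = 5.06e-05). Vegfc fell there too (-0.39 ± 0.12, adjusted p = 0.0208), a call lost without Hif1a flox replicate 2, Hif1a KO replicate 1 or Hif1a KO replicate 2 (adjusted p = 0.0618 to 0.118), and rose in the Ahr line (0.58 ± 0.12, adjusted p = 0.00778), though not if Ahr flox replicate 1 is left out (adjusted p = 0.0559).

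Among other angiogenic factors 14 of 20 tested genes were called in the Hif1a line (beside 35.4% of all genes), 12 of them lower (beside 17.8%). Stc2, a secreted glycoprotein gene, fell from 17.1 to 1.32 CPM there (adjusted p = 3.1e-07) and from 19.1 to 2.19 CPM in the Hif1a Ahr line (adjusted p = 1.03e-06). Vash1, which encodes the vessel growth inhibitor vasohibin-1, fell in the same lines (-1.58 ± 0.17 and -0.81 ± 0.16, adjusted p = 1.66e-06 and 0.00116). Pdgfa, a platelet-derived growth factor gene, fell in the Hif1a Ahr line from 45.2 to 14.6 CPM (adjusted p = 6.77e-05). It also fell in the Ahr line from 38.4 to 19.5 CPM (adjusted p = 0.0151), though not if any of 4 single libraries is left out, Ahr flox replicates 1 and 3 and Ahr KO replicates 2 and 3 (adjusted p = 0.0615 to 0.0752). In the Hif1a line edgeR called it lower only with a replicate block or with that line's libraries alone (adjusted p = 0.0137 and 5.79e-04), as did DESeq2 (adjusted p = 0.0156) and limma voom (adjusted p = 0.0407). Egfl7, a gene of an endothelial matrix factor, rose in the Hif1a and Hif1a Ahr lines (0.64 ± 0.16 and 0.77 ± 0.16, adjusted p = 0.00449 and 0.00125).

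In the guidance families, Unc5a, a paralog of Unc5b, moved opposite to it in the Hif1a and Hif1a Ahr lines. It rose from 3.77 to 7.91 CPM in the Hif1a line (1.07 ± 0.12, adjusted p = 3.42e-06) and from 3.66 to 7 CPM in the Hif1a Ahr line (0.93 ± 0.13, adjusted p = 1.77e-05). In the Ahr line, where Unc5b was lower too, Unc5a was not called by edgeR. The ligand gene Ntn1 fell in the Hif1a line from 1.34 to 0.185 CPM (adjusted p = 4.06e-05), and the netrin receptor gene Neo1 rose in the Hif1a Ahr line from 1.46 to 3.37 CPM (adjusted p = 0.0031). Dcc, the other classical netrin receptor gene, had group means of at most 0.00695 CPM. By edgeR 0 of 10 tested netrin and slit genes were called in the Ahr line (beside 6.92% of all genes), with 3 at an unadjusted p under 0.05. DESeq2 called 1 and limma voom 0. With a replicate block 2 of them were called higher, Dscam (adjusted p = 9.39e-04) and Ntn1 (adjusted p = 0.0377). Semaphorins and plexins, whose class 3 members signal through Nrp1, had 16 of 20 genes called in the Hif1a line (beside 35.4% of all genes), 6 higher (beside 17.6%) and 10 lower (beside 17.8%). The plexin gene Plxnb2 rose there from 1.37 to 10.5 CPM (adjusted p = 9.87e-04) and Sema4b from 4.95 to 10.6 CPM (adjusted p = 0.00163), while Plxnb3 fell from 15.8 to 2.8 CPM (adjusted p = 1.9e-04). Plxnb3 also fell in the Hif1a Ahr line, from 16.1 to 3.41 CPM (adjusted p = 4.91e-04), as did Sema6d, from 386 to 177 CPM (adjusted p = 7.71e-04), while Sema4a rose there from 145 to 335 CPM (adjusted p = 0.00726). Plxnc1, a semaphorin receptor gene, rose from 0.865 to 9.16 CPM in the Hif1a Ahr line (3.40 ± 0.29, adjusted p = 7.4e-08), 1.48 more than in the Hif1a line (adjusted p of the difference 0.026). Sema6b fell in both lines without Hif1a (-1.92 and -2.22, adjusted p = 5.19e-07 and 1.15e-07). Sema4f fell in the Ahr line from 2.01 to 0.494 CPM (adjusted p = 5.24e-04). Of 8 tested ephrin and Eph receptor genes, Efnb1, which encodes ephrin-B1, rose in the Ahr line from 3.42 to 6.07 CPM (adjusted p = 0.00158), Efnb2 fell there from 5.89 to 2.65 CPM (adjusted p = 0.0112, or 0.0606 without Ahr KO replicate 3) and Epha2 fell in the Hif1a line (-1.11 ± 0.20, adjusted p = 3.34e-04). Nrp2, the paralog of Nrp1, had group means of 0.104 to 0.307 CPM. It was not called by edgeR in any line, but was called higher in the Ahr line with a replicate block (adjusted p = 0.0406) and by limma voom (adjusted p = 0.0458).

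Of 10 tested metalloproteinase and inhibitor genes, 2 rose and 2 fell in the Hif1a line (beside 17.6% and 17.8% of all genes) and 1 rose and 1 fell in the Hif1a Ahr line (beside 14.8% and 16.5%). Bsg, which encodes the metalloproteinase inducer basigin, fell by about the same amount in both lines without Hif1a, from 493 to 238 CPM and from 511 to 247 CPM (adjusted p = 9.21e-09 and 9.49e-09). Reck, a membrane inhibitor of metalloproteinases, rose in the Hif1a Ahr line from 7.57 to 11.8 CPM (adjusted p = 1.88e-04). By edgeR 0 of 10 tested metalloproteinase and inhibitor genes were called in the Ahr line (beside 6.92% of all genes), with 3 at an unadjusted p under 0.05. DESeq2 called 1, and 0 were called by limma voom or with a replicate block. Timp1, an inhibitor of Mmp9, did not pass the filter. Of 13 tested ADAMTS relatives of Adamtsl3, 2 fell in the Hif1a line (Adamts14 and Adamtsl5), 1 rose in the Ahr line (Adamts6), and in the Hif1a Ahr line Adamts6 rose and Adamts1 and Adamtsl5 fell. In that order of lines 15.4%, 7.69% and 23.1% were called, beside 35.4%, 6.92% and 31.3% of all genes. The Adamts6 call in the Ahr line was lost without any single one of the 6 libraries (adjusted p = 0.0548 to 0.09). The most counted was Adamts14, which fell in the Hif1a line from 282 to 118 CPM (adjusted p = 2.03e-05). Of 9 tested CCN and matricellular relatives of Ccn5, the thrombospondin gene Thbs3 rose in the Hif1a line from 0.446 to 0.906 CPM (adjusted p = 0.00257). The tenascin gene Tnxb fell in the Ahr line (adjusted p = 0.0298), and 4 single libraries each ended that call when left out: Ahr flox replicates 1 and 3 and Ahr KO replicates 2 and 3 (adjusted p = 0.0715 to 0.116). In the Hif1a Ahr line Thbs3 rose and Ccn3 fell (adjusted p = 0.024 and 0.0196). These calls were lost without Hif1a Ahr flox replicate 1 or Hif1a Ahr KO replicate 3 (also Hif1a Ahr KO replicate 1 for Thbs3 and replicate 2 for Ccn3), at adjusted p = 0.0526 to 0.112. Those named with under 1 CPM, or with overlapping libraries, were named after their values were seen.

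Among 7 tested receptor genes for osteopontin, 2 rose and 4 fell in the Hif1a line (beside 17.6% and 17.8% of all genes). In the Ahr and Hif1a Ahr lines 2 rose each (beside 2.14% and 14.8% of all genes). The integrin genes Itgb3 and Itgav fell in the Hif1a line (-0.62 ± 0.13 and -0.34 ± 0.07, adjusted p = 8.78e-04 and 0.00128). Itgb1, the beta-1 integrin gene, rose in the Ahr line from 634 to 958 CPM (adjusted p = 0.00195) and in the Hif1a Ahr line from 625 to 912 CPM (adjusted p = 6.56e-04). Itgb5, another integrin gene, rose in the Hif1a line from 0.612 to 1.91 CPM (adjusted p = 3.06e-04). Cd44, which also binds osteopontin, was not called by edgeR in the 3 lines, with changes of 0.36 ± 0.24, -0.27 ± 0.24 and 0.63 ± 0.24 (adjusted p = 0.265, 0.596 and 0.0585). It was called higher in the Hif1a Ahr line by DESeq2 (adjusted p = 0.0327), limma voom (adjusted p = 0.0341) and edgeR with a replicate block (adjusted p = 7.04e-04), and in the Hif1a line with the block (adjusted p = 0.0136).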

How the data were processed

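RNA from 18 samples was sequenced with a strand-specific mRNA library, per the labels' protocols. The authors' processing used Trim Galore 0.6.4, kallisto 0.4.6, edgeR 3.17 and build GRCm39, per the submitters' processing notes; their settings are not given in the sources used here. The deposited values are estimated counts per gene, not normalized, and 28.2% to 30.6% of them were not whole numbers. The deposited CPM values were not used.

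The estimated counts, fractions kept, were scaled by TMM and filtered with filterByExpr, then fitted with robust quasi-likelihood dispersion in edgeR 4.0.16 (R 4.3.3). All 18 libraries shared a fit with a mean for each of 6 groups (12 residual degrees of freedom, common BCV 0.117). P-values are 2-sided and adjusted by Benjamini-Hochberg over 16747 genes, and called means an adjusted p under 0.05. CPM values in the text are TMM-scaled. Each SE is the log2 change over the root of the F statistic. The filter asked for about 0.181 CPM in at least 3 libraries. All 10 genes passed it, Ccn5 through 1 group. The fit was also run on simulated data, with a BCV of 0.117 for every gene and changes set only in well-counted genes. Genes such as Mmp9 and Ccn5 have a wider spread or fewer counts, so this run checks the code and not the results. Alternatives were limma 3.58.1 (voom), DESeq2 1.42.0 on rounded counts, RLE size factors, no filter, only the 6 libraries of a line, a replicate block, and each library left out.

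The genes and lists were chosen with earlier results of these data known. Relatives were named by rule: in each list and comparison up to 3 called genes per direction with a mean of at least 1 CPM and no overlap, by adjusted p, plus the direct partners of the 10 genes. The text describes most of these, with preference for calls that stood when single libraries were left out, and not all. Symbols matched 52029 of 56953 identifiers. The promoter windows come from another build than the counts.

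Whether replicate numbers pair the libraries was checked by correlating same-numbered libraries' deviations from their group means. Each pair exceeded 0.1 for Hif1a (r of 0.30 to 0.53) and for Ahr (r of 0.33 to 0.53), but not for the double deletion (r of 0.07 to 0.45). P-values measure the spread between these libraries, which varied 17.2 to 72.2 times more than counting error (chi-square per degree of freedom).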

Additional observations from a re-analysis of the deposited data

Results flagged for a closer look

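Among the 10 genes, Vegfa, Apln and Spp1 had KO libraries all above flox in the Ahr line and all below flox in a line without Hif1a. How many of all genes separate this way was not counted, so nothing is read from the separation. For Vegfa the Ahr line's change (0.18 ± 0.17) was about the size of its error. The change in the Ahr line exceeded that in the Hif1a line by 3.30 (log2) for Vegfa, 4.84 for Apln and 3.50 for Spp1. The change in the Hif1a Ahr line minus that in the Ahr line was -2.60 for Vegfa and -4.48 for Apln. These differences were not tested, since the genes were chosen on them.

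Among the relatives, several genes rose in one line and fell in another with a called difference between the changes (edgeR, adjusted over all genes). The Ahr change minus the Hif1a change was 3.57 for Ramp1 (adjusted p = 2.67e-06), 1.41 for Sema4c (adjusted p = 5.84e-07), 2.21 for Sema4a (adjusted p = 0.00119), 1.00 for Pdgfb (adjusted p = 4.3e-04), 0.96 for Vegfc (adjusted p = 3.72e-04), 0.95 for Itgb1 (adjusted p = 9.48e-05) and -3.22 for Sema4f (adjusted p = 1.19e-05). The Hif1a Ahr change minus the Hif1a change was 2.24 for Sema4a (adjusted p = 0.00733), 0.90 for Itgb1 (adjusted p = 0.00202) and 0.73 for Vegfc (adjusted p = 0.016). The rise of Vegfc in the Ahr line was not called without Ahr flox replicate 1 (adjusted p = 0.0559). The rises of Sema4a, Sema4c and Pdgfb in the Ahr line likewise lost their call without Ahr flox replicate 1 (adjusted p = 0.146, 0.0502 and 0.186), among other libraries. For Vegfc the fall in the Hif1a line was lost without any of 3 single libraries (adjusted p = 0.0618 to 0.118). Its rise in the Hif1a Ahr line was lost without any of 5 single libraries (adjusted p = 0.061 to 0.176), under limma voom (adjusted p = 0.0699) and with that line's libraries alone (adjusted p = 0.109). The fall of Sema4a in the Hif1a line was not called when Hif1a flox replicate 3 (adjusted p = 0.0526) or Hif1a KO replicate 2 (adjusted p = 0.0527) was left out. That of Itgb1 was not called when Hif1a flox replicate 1 (adjusted p = 0.0544) or Hif1a KO replicate 2 (adjusted p = 0.0817) was left out.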

How the results depend on the processing

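Of the 10 genes' changes under all alternatives, 365 kept their direction and side of the threshold, 15 were no longer called, 1 was newly called and 7 turned sign. The alternatives refit the same counts that chose the genes, so this tally is a description and no support for the changes. With only a line's 6 libraries Ccn5 did not pass the filter in the Hif1a and Ahr lines and has no value, so 7 of the 10 genes were called in the Hif1a line, none of them higher. The sign turned for small changes only: Adamtsl3 in the Hif1a line to 0.04 without Hif1a flox replicate 2, Pgf in the Ahr line to -0.18, -0.05 and -0.18 without Ahr KO replicate 1, Ahr KO replicate 2 and Ahr flox replicate 3, and Mmp9 in the Ahr line to -0.42, -0.13 and -0.20 without Ahr KO replicate 2, Ahr flox replicate 1 and Ahr flox replicate 3. Over all single libraries left out, these changes ran from -0.33 to 0.04 for Adamtsl3, from -0.18 to 0.36 for Pgf and from -0.42 to 0.87 for Mmp9.

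With same-numbered libraries as a replicate block, genes called in the Ahr line went from 1159 to 2423 (42.7% of them higher, beside 31% without the block). Relatives called there went from 15 to 28. Spp1 became called in the Hif1a Ahr line, where the replicate 1 pair did not exceed 0.1 (r of 0.07) and the others did (r of 0.45 and 0.27). With only the 6 libraries of a line, relatives called in the Ahr line numbered 26 (41.4% of all called genes were higher), and in the Hif1a Ahr line 3100 genes and 24 relatives were called beside 5245 and 38. Leaving out 1 library each gave 467 to 1333 genes and 6 to 17 relatives in the Ahr line. The block changed no other call of the 10 genes. Rounding the counts, an alternative chosen after seeing the data, gave 5920, 1157 and 5242 genes called for Hif1a, Ahr and both together (5923, 1159 and 5245 unrounded) and changed no call of the 10 genes. Genes such as Ccn5, Pgf, Adm and Mmp9 have few counts in KO groups, which limits how closely their folds are known.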
